A study of Homo sapiens with 60 samples.

Results

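Genes of 6 matrix metalloproteinases and of 3 of their inhibitors were followed through all treatment groups of a herbal extract screen. The proteases were MMP1, MMP2, MMP3, MMP9, MMP10 and MMP14, and the inhibitors were TIMP1, TIMP2 and TIMP3. They are 9 of the 60675 genes in the table and were chosen by name. Matched by symbol, all 9 were found, and all 9 passed the filter on low counts. RNA came from SW1783, an established line of human astrocytoma cells grown in L-15 medium with serum. Cultures were exposed for 24 h to a hot water extract or, in the control group, to the vehicle (0.1% DMSO in the sample labels). The labels give no DMSO level for the extract groups. Single plants gave 6 extracts, namely Cnidii Rhizoma (Cnidium), Rehmanniae Radix Preparata (Rehmannia), Cinnamomi Cortex (Cinnamon), Astragali Radix (Astragalus), Angelicae Gigantis Radix (Angelica) and Paeoniae Radix (Paeonia), and the formulas Sagunja-tang (Sagunja) and Samul-tang (Samul) gave 2. High, medium and low dose stand for 500, 100 and 20 µg/mL. Of 60 libraries in 25 groups, 3 were vehicle. Cnidium, Rehmannia, Cinnamon, Astragalus and Sagunja had 3 libraries at each dose, Samul had 2, and Angelica and Paeonia had 1. Everything was measured in 1 cell line.

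Matrix metalloproteinases are zinc-dependent endopeptidases that cut collagens and other proteins of the extracellular matrix. They are made as inactive proenzymes, and the tissue inhibitors of metalloproteinases (TIMPs) bind the active enzyme. Several of the genes are induced by inflammatory cytokines through AP-1 and NF-kappaB, and in astrocytic tumours the enzymes are known for their part in invasion. Transcript levels say nothing of how much of an enzyme is active.

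The 6 proteases share a zinc-binding site, and its coding sequence is shown because it shows both the family's common feature and how alike MMP3 and MMP10 are. The 33 bases are from GENCODE release 29 transcripts, 5′ to 3′, and the capitals mark the codons of the 3 zinc-binding histidines and of the catalytic glutamate.
MMP1: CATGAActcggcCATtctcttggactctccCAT
MMP2: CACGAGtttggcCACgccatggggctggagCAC
MMP3: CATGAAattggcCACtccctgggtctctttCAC
MMP9: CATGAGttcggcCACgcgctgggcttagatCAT
MMP10: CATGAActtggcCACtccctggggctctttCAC
MMP14: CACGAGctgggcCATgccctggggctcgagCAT
MMP3 and MMP10 were identical at 31 of these 33 bases, and MMP1 and MMP2 at 18. Over the whole transcripts, MMP3 and MMP10 shared an identical run of 96 bases, close to the 100-base read length. The next longest run, between MMP2 and MMP9, was 23 bases. Reads from MMP3, the more abundant of the pair, could therefore be divided wrongly with MMP10, and MMP10 values are uncertain for that reason too.

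MMP1, MMP3 and MMP10 lie in a cluster of protease genes on chromosome 11. On GRCh38 (GENCODE release 29) MMP1 (ENSG00000196611) is at chr11:102789920-102798160, MMP3 (ENSG00000149968) at chr11:102835801-102843803 and MMP10 (ENSG00000166670) at chr11:102770503-102780628, all on the minus strand. MMP2 (ENSG00000087245) is at chr16:55389700-55506691, MMP9 (ENSG00000100985) at chr20:46008908-46016561 and MMP14 (ENSG00000157227) at chr14:22836557-22849027, all on the plus strand. TIMP1 (ENSG00000102265) is at chrX:47582313-47586789 on the plus strand, TIMP2 (ENSG00000035862) at chr17:78852977-78925387 on the minus strand and TIMP3 (ENSG00000100234) at chr22:32801701-32863043 on the plus strand. Several have annotated neighbours on the opposite strand, such as WTAPP1 across MMP1, MMP3 and MMP10, SYN1 at TIMP1 and SYN3 around TIMP3. The libraries were directional, but whether counting used strand is not stated in the sources used here, so reads of such partners may not be told apart. CEP295NL at TIMP2 and ENSG00000279030 at MMP2 overlap on the same strand, where strand cannot separate reads.

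The library totals lay between 20604792 and 29609799 counts, with between 22705 and 23990 genes detected in each. Defining astrocyte markers were nearly absent: GFAP, S100B, AQP4 and ALDH1L1 were under 0.1 CPM in vehicle, while 4 of 8 markers of the list, SLC1A3, SOX9, GJA1 and CLU, were at 1 CPM or more. All 7 fibroblast and mural markers, THY1 and COL1A1 among them, were expressed. Of 6 macrophage and microglia markers 3 were at 1 CPM or more, namely CD68 at 162 CPM, PTPRC at 8.54 CPM and CSF1R at 3.03 CPM, while AIF1 and TYROBP were under 0.1 CPM. Of 5 neutrophil markers S100A9 was at 1.02 CPM and MPO, ELANE, FCGR3B and S100A8 were under 0.1 CPM. Whether replicates were separate cultures is not in the labels, and the p-values then cover only the spread of these samples, which may be technical. All sample titles begin with BatchB, yet the sample codes put the vehicle libraries in a set of their own, apart from every extract. A difference from vehicle and a difference between sets therefore cannot be told apart. Nor can a difference in DMSO, whose level in the extract groups is not given. Comparisons of doses, and of Cinnamon with Astragalus, Sagunja with Samul and Cnidium with Rehmannia, lie within 1 set each. Replicate 1 of Sagunja low stood apart, at a median distance of 0.439 log2 units from its replicates. For libraries of other groups the distance was 0.058 to 0.137.

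Levels are given as CPM (counts normalised to the library total after TMM scaling), as mean ± SD. Changes are log2 fold changes ± standard error from the edgeR quasi-likelihood test, in which all groups share 1 estimate of the spread. A gene was called at a Benjamini-Hochberg adjusted p under 0.05 over 17516 genes, and n is 3 libraries a group, or 2 for Samul. The alternative run with no filter on low counts also left out the robust option of the fit.

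Levels were compared between genes per kilobase of exon. In vehicle TIMP1 was highest at 716 CPM per kb, followed by MMP14 (203), TIMP2 (109), MMP2 (85.4), MMP1 (31.6), TIMP3 (13.4), MMP3 (4.69), MMP9 (0.647) and MMP10 (0.266). The vehicle ranges of neighbours in this order did not overlap. The order was nearly the same in all libraries: MMP2 exceeded MMP1 in 59 of 60, the exception being a Sagunja high library, and MMP9 exceeded MMP10 in 54 of 60. Genes of the secreted inhibitor TIMP1 and the membrane-anchored protease MMP14 thus had the highest transcript levels of the 9. MMP9 and MMP10 were close to the limit of counting, with 9 to 61 and 3 to 21 counts per library.

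Across the 25 group means the members varied to different degrees. The highest group exceeded the lowest 4.37-fold for MMP9, 2.75-fold for MMP10, 2.25-fold for MMP1, 1.84-fold for MMP3, 1.55-fold for MMP14, 1.43-fold for MMP2, 1.42-fold for TIMP3, 1.30-fold for TIMP1 and 1.18-fold for TIMP2. MMP1, MMP3, MMP9 and MMP10 had their highest mean with Sagunja high, which had the lowest means of MMP2 and TIMP2. MMP14 and TIMP2 were highest, and TIMP3 lowest, with Cinnamon high. TIMP3 was below the vehicle mean in 24 of 24 extract groups and MMP2 and TIMP2 in 23 of 24, all set against the same 3 vehicle libraries. How many of all genes lay below it as often was not counted.

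**Figure D1:**
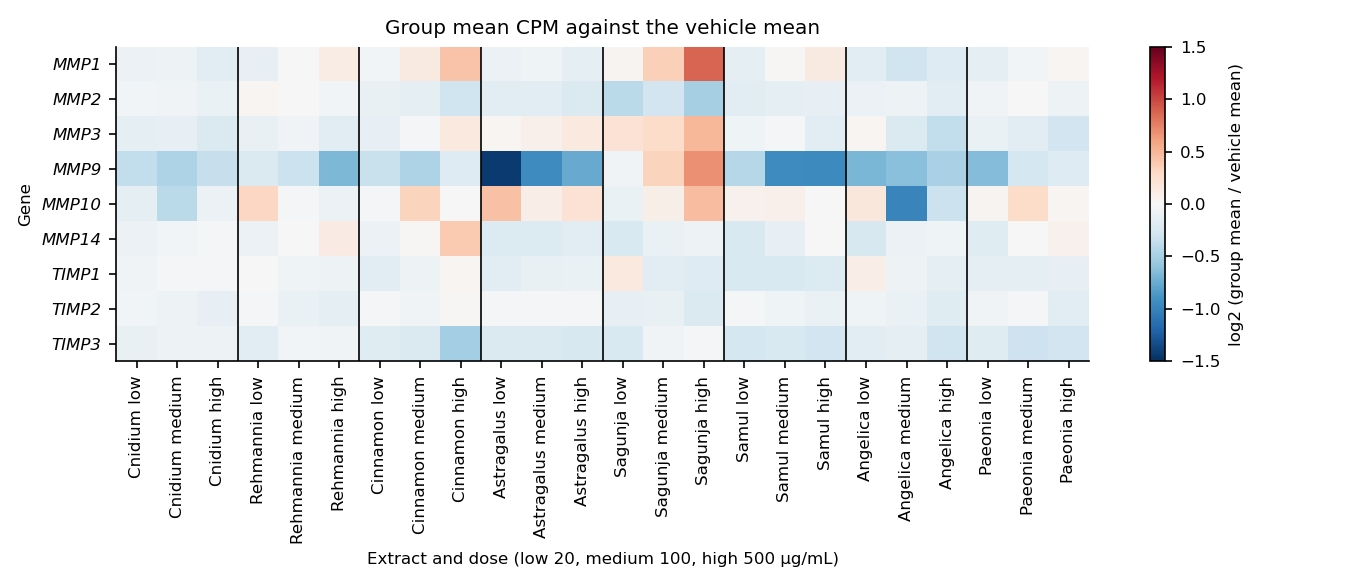
Each cell is the log2 ratio of a group's mean CPM to the vehicle mean (3 libraries), for 9 genes (rows) and 24 extract and dose groups (columns). MMP1 is highest in the column for Sagunja high, MMP14 in that for Cinnamon high, and the TIMP3 row is below vehicle throughout.

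MMP1 encodes interstitial collagenase, which cuts fibrillar collagens. Its levels in the vehicle libraries were 61.5, 65.6 and 59.8 CPM. With Sagunja they were 68.6, 63.6 and 60 CPM at the low dose, 85.8, 80.1 and 74.2 at the medium dose and 117, 119 and 108 at the high dose. The 3 doses did not overlap, and all high and medium libraries lay above all vehicle libraries. The rise against vehicle was 1.85-fold at the high dose (0.89 ± 0.06, adjusted p = 5.34e-16) and 1.30-fold at the medium dose (0.38 ± 0.06, adjusted p = 1.87e-05). Against the low dose MMP1 rose by 0.84 ± 0.06 at the high dose (adjusted p = 8.58e-15) and by 0.32 ± 0.06 at the medium dose (adjusted p = 0.00067). Without replicate 1 of Sagunja low these were 0.89 ± 0.06 (adjusted p = 4.01e-17) and 0.37 ± 0.06 (adjusted p = 3e-05). Fitted on the 2 compared groups alone, with that replicate included, the dose steps had the same sizes, 0.84 and 0.32, but neither was called (adjusted p = 0.134 and 0.864).

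Cinnamon was the other extract with a clear rise of MMP1. Its libraries held 58, 62.8 and 61.3 CPM at the low dose, 66.7, 67.5 and 70.8 at the medium dose and 80.9, 88.5 and 82.3 at the high dose. The high dose exceeded vehicle by 0.44 ± 0.06 (1.36-fold, adjusted p = 7.1e-08) and the low dose by 0.47 ± 0.06 (adjusted p = 1.86e-08). Cinnamon high and Sagunja medium overlapped and were the next highest groups after Sagunja high. Smaller rises from the low to the high dose were called with Rehmannia, from 57.1 to 67.4 CPM (0.24 ± 0.06, adjusted p = 0.0231), and with Samul, from 56.5 to 68.6 CPM (0.28 ± 0.07, adjusted p = 0.0401). Both were fragile: the Rehmannia call held in 3 of 7 fits that left out 1 library (lost without replicate 2 or 3 of either dose, adjusted p up to 0.197), and the Samul call in 1 of 5 (lost without any of its 4 libraries, up to 0.652). Neither was called with no filter on low counts (adjusted p = 0.571 and 0.731). With Cnidium MMP1 stayed between 54.8 and 62.3 CPM at all doses, and with Astragalus between 55 and 59.8.

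**Figure D2:**
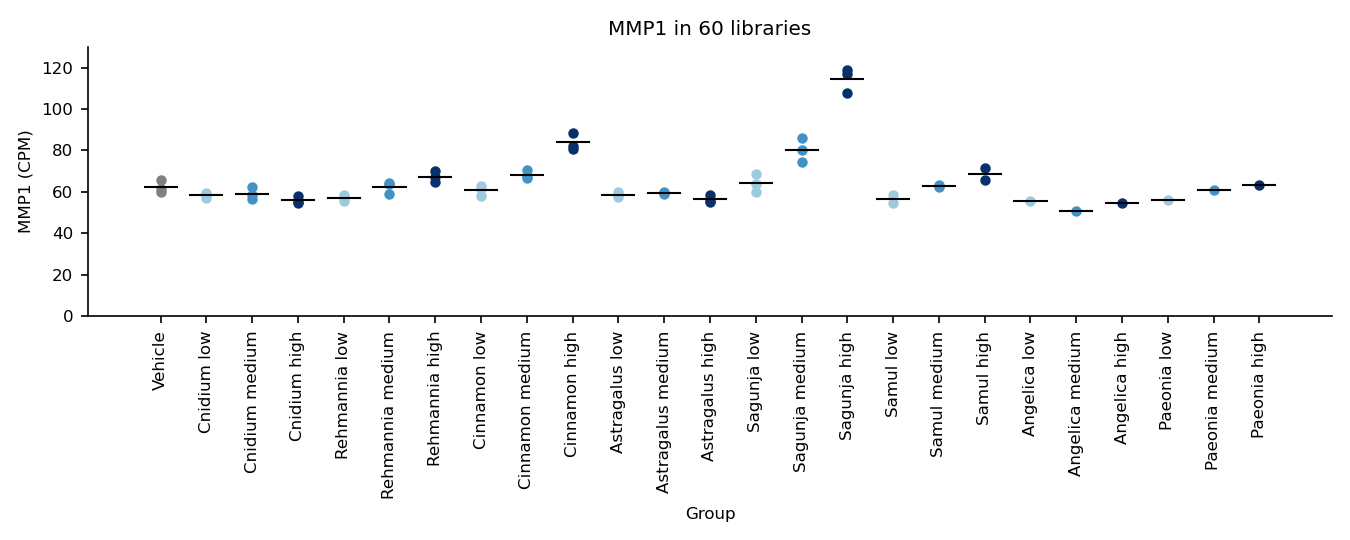
MMP1 in CPM (vertical axis, from 0) in each of 60 libraries (points), with group means (lines), by group along the horizontal axis; darker points are higher doses and grey is vehicle. The 3 Sagunja high libraries at 108 to 119 CPM stand above all others, followed by Cinnamon high and Sagunja medium.

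MMP3 (stromelysin 1), which can activate other proenzymes of the family, was a low-level gene with its highest mean under Sagunja. Vehicle libraries held 9.1, 9.69 and 9.99 CPM, and Sagunja high libraries 12.5, 15.3 and 13.1 CPM, with no overlap. The rise was 1.43-fold (0.52 ± 0.11, adjusted p = 0.000458). Sagunja medium held 13.1, 12 and 9.74 CPM and Sagunja low 12.6, 11 and 10.1, so that low and high overlapped and the step between them was not called (0.29 ± 0.11, adjusted p = 0.0517). Without replicate 1 of Sagunja low that step was called at 0.37 ± 0.11 (adjusted p = 0.03). Cinnamon high, at 10.3 to 11.2 CPM, lay above vehicle without passing the test (0.16 ± 0.11, adjusted p = 0.302).

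MMP9 encodes gelatinase B, an enzyme of inflamed tissue that cuts denatured and basement membrane collagen. Vehicle libraries held 1.5, 1.94 and 1.1 CPM and Sagunja high libraries 2.48, 2.38 and 2.44 CPM. All 3 treated libraries exceeded all vehicle libraries, yet the difference did not pass (0.70 ± 0.26, adjusted p = 0.0539). It was called without replicate 1 of Sagunja low (0.69 ± 0.23, adjusted p = 0.0202), a library that enters this comparison only through the shared spread. Against Sagunja low, at 2.08, 1.3 and 0.993 CPM, MMP9 rose by 0.76 ± 0.26 (adjusted p = 0.0365), or by 1.08 ± 0.28 (adjusted p = 0.00843) without that replicate. Without any 1 of the other 5 libraries of this pair the call was lost (adjusted p up to 0.109). Fitted on the compared groups alone, with that replicate included, it was not called either (adjusted p = 0.78).

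At the other end, MMP9 was lowest with Astragalus low, at 0.354, 0.805 and 0.512 CPM. These libraries lay below all vehicle libraries, and MMP9 fell by 1.43 ± 0.31 log2 units (adjusted p = 0.00381). The call held in every alternative run. Astragalus high libraries, at 1.2, 0.875 and 0.605 CPM, overlapped with both (-0.74 ± 0.29 against vehicle, adjusted p = 0.152). Samul high, at 0.845 and 0.708 CPM, was also below vehicle without passing (-0.95 ± 0.33, adjusted p = 0.0918), and was called without replicate 1 of Sagunja low (-0.96 ± 0.30, adjusted p = 0.0277). MMP9 was below the vehicle mean in 22 of 24 extract groups, the exceptions being Sagunja medium and high, again against the same vehicle libraries.

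MMP10 (stromelysin 2) was near the counting limit in all groups, with 0.156 to 0.835 CPM over all libraries and vehicle at 0.346, 0.565 and 0.49 CPM. No comparison called it. With Sagunja high, the group with its highest mean (0.646 ± 0.213 CPM), the difference from vehicle was 0.48. Its 95% interval of -0.30 to 1.26 did not tell it apart from no change.

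MMP2 encodes gelatinase A, a protease of basement membrane collagen that MMP14 activates at the cell surface with the help of TIMP2. Its vehicle libraries lay close together, at 425, 417 and 422 CPM. Sagunja high libraries held 305, 292 and 300 CPM, none overlapping with vehicle, and MMP2 fell to 0.72 of vehicle (-0.48 ± 0.07, adjusted p = 1.74e-06). It also fell with Cinnamon high, at 341, 360 and 332 CPM (-0.28 ± 0.07, adjusted p = 0.00251). Sagunja medium (378, 328 and 335 CPM; -0.27 ± 0.07, adjusted p = 0.013) and Sagunja low (269, 354 and 339 CPM; -0.38 ± 0.07, adjusted p = 0.000324) were called lower too. The medium call was lost without vehicle replicate 1 or without Sagunja medium replicate 2 or 3 (adjusted p up to 0.0966). It was also lost with no filter on low counts (adjusted p = 0.0557). The low dose was still called, at -0.28 ± 0.06, without its replicate 1 (adjusted p = 0.00138), but not when fitted with vehicle alone (adjusted p = 0.753). MMP2 did not follow the dose of Sagunja as MMP1 did: high against low was -0.10 ± 0.07 (adjusted p = 0.301), or -0.21 ± 0.06 (adjusted p = 0.0221) without that library. Its step from Cinnamon low to high was not called, but was without replicate 1 of Sagunja low (-0.18 ± 0.05, adjusted p = 0.00782).

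MMP14 encodes a membrane-anchored protease that cuts collagen around the cell and activates the MMP2 proenzyme. Vehicle libraries held 925, 898 and 896 CPM. Cinnamon libraries held 908, 826 and 812 CPM at the low dose, 998, 881 and 870 at the medium dose and 1234, 1202 and 1140 at the high dose. The high dose lay above all other libraries of the series. MMP14 rose 1.33-fold against vehicle (0.41 ± 0.06, adjusted p = 5.75e-07) and 1.41-fold against the low dose (0.50 ± 0.06, adjusted p = 1.01e-08). With Sagunja high, at 857, 847 and 870 CPM, it was -0.06 ± 0.06 from vehicle (adjusted p = 0.513). Called falls were small: -0.19 ± 0.06 with Astragalus low (adjusted p = 0.0482) and -0.22 ± 0.06 with Sagunja low (adjusted p = 0.00722), the latter -0.27 ± 0.06 (adjusted p = 0.00254) without replicate 1 and not called when fitted with vehicle alone (adjusted p = 0.753). The Astragalus call was lost without any 1 vehicle library or Astragalus low replicate 2 or 3 (adjusted p up to 0.313). It was also lost with no filter on low counts (adjusted p = 0.337) and with library size alone (adjusted p = 0.0947). The rise from Sagunja low to high (0.16 ± 0.06, adjusted p = 0.0487) was lost without any 1 of 5 of its 6 libraries (up to 0.126) and kept without Sagunja low replicate 1 (0.19 ± 0.06, adjusted p = 0.0417). It was also lost on those groups alone (adjusted p = 0.78), with no filter on low counts (0.218) and with DESeq2 size factors (0.0543).

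TIMP3, the inhibitor that binds to the matrix and also inhibits ADAM proteases, moved the other way from MMP14 with Cinnamon. Its levels were 62.1, 59.6 and 63.3 CPM in vehicle and 44.7, 42.3 and 43 CPM with Cinnamon high, below every vehicle library. It fell to 0.71 of vehicle (-0.49 ± 0.07, adjusted p = 1.64e-07) and, from 60.2, 52.5 and 49.7 CPM at the low dose, by 0.32 ± 0.07 (adjusted p = 0.000323). Smaller falls against vehicle were called with Astragalus high (54.8, 51.2 and 50.4 CPM; -0.23 ± 0.07, adjusted p = 0.0274) and Samul high (52 and 49.4 CPM; -0.27 ± 0.07, adjusted p = 0.0243). The Astragalus call was lost without vehicle replicate 1 or 3 or Astragalus high replicate 2 or 3 (adjusted p up to 0.13). The Samul call was lost without vehicle replicate 1 or 3 or either Samul high library (up to 0.184). Library-size scaling without TMM also ended both (adjusted p = 0.0834 and 0.0984). So did the run with no filter on low counts (adjusted p = 0.245 and 0.248). The TIMP3 means were about as low at every dose of these extracts. From low to high dose they were 0.86, 0.86 and 0.84 of vehicle with Astragalus and 0.83, 0.85 and 0.82 with Samul. Neither step from low to high dose was called, with or without replicate 1 of Sagunja low. Without it the steps were -0.02 ± 0.06 and -0.01 ± 0.07 (adjusted p = 0.903 and 0.981).

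With Sagunja high TIMP3 stood at 64.5, 60.6 and 57 CPM, overlapping with vehicle (-0.01 ± 0.07, adjusted p = 0.96). Sagunja low was called lower than vehicle (-0.22 ± 0.07, adjusted p = 0.0163) and than Sagunja high (high against low 0.21 ± 0.07, adjusted p = 0.0224). Both calls were lost without its replicate 1, which had the lowest value of the group, 47.3 CPM against 56.8 and 53.5 (-0.16 ± 0.06, adjusted p = 0.0911, and 0.14 ± 0.06, adjusted p = 0.238). The first was also lost without vehicle replicate 1 or 3, and the second without Sagunja high replicate 1. Neither was called on the compared groups alone (adjusted p = 0.753 and 0.78) or with no filter on low counts (0.103 and 0.124).

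TIMP1, the broad secreted inhibitor, was not called in any comparison. Vehicle libraries held 1139, 1121 and 1051 CPM, Cinnamon high libraries 1106, 1179 and 1104 and Sagunja high libraries 988, 1018 and 900. The interval of the Cinnamon high difference was -0.24 to 0.34 and that of Sagunja high -0.46 to 0.12. Sagunja low had the highest mean of all groups, 1225 ± 556 CPM, but this rested on replicate 1 at 1863 CPM beside 967 and 845. Without it the difference of Sagunja low from vehicle was -0.29 ± 0.11 (adjusted p = 0.081).

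TIMP2, which both inhibits MMP2 and helps MMP14 to activate it, varied least. Vehicle libraries held 608, 609 and 621 CPM and Sagunja high libraries 527, 527 and 533 CPM. The groups did not overlap, and TIMP2 fell by 0.20 ± 0.04 (adjusted p = 0.000377). With no filter on low counts, and so without the robust option, this was not called (adjusted p = 0.149). The step of TIMP2 from Sagunja low to high was not called, nor was it without replicate 1 of Sagunja low (-0.12 ± 0.04, adjusted p = 0.0545). Cinnamon high libraries, at 613, 641 and 611 CPM, overlapped with vehicle (0.04 ± 0.04, adjusted p = 0.577). Sagunja low was called at -0.11 ± 0.04 (adjusted p = 0.0497) but not without its replicate 1 (-0.09 ± 0.04, adjusted p = 0.108) or any 1 vehicle library (adjusted p up to 0.139). The call was also lost when fitted with vehicle alone (adjusted p = 0.762) and with no filter on low counts (adjusted p = 0.545).

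The counts of called members were read against the share of all 17516 genes called. With Cinnamon high against vehicle 4 of 9 members were called, 2 higher and 2 lower, where 22.8% of all genes were. The members' median was 0.04 and that of all genes 0.00. The number of members called was again 4 without replicate 1 of Sagunja low, which enters through the shared spread, and the share of genes 35.7%. With Sagunja high 4 of 9 were called, 2 higher and 2 lower, against 17.1% of genes, with medians of -0.01 and 0.02. Without that library 5 of 9 were called and 30.8% of genes. Astragalus high had 1 of 9 (4.45% of genes) and Samul high 1 of 9 (4.13%), or 3 (12.6%) and 2 (13.3%) without it. Cnidium high (1.35% of genes) and Rehmannia high (2.37%) had 0 of 9 by edgeR. At an unadjusted p under 0.05 edgeR gave 2 members for Cnidium high and 4 for Rehmannia high, and DESeq2 called 1 in each. EdgeR also called 1 in each, TIMP2, without replicate 1 of Sagunja low (5.51% and 7.62% of genes).

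At the medium dose against vehicle 2 of 54 member tests were called, both with Sagunja (6.32% of genes). The other 5 extracts had 0 of 9 each by edgeR. The shares of genes were 0.297% for Cnidium, 0.714% for Rehmannia, 2.29% for Cinnamon, 3.94% for Astragalus and 1.75% for Samul. Unadjusted p-values under 0.05 numbered 0, 1, 3, 4 and 2 for these extracts in that order, and DESeq2 called 0, 0, 1, 3 and 1. The calls without replicate 1 of Sagunja low were 3 with Sagunja (17.5% of genes), 4 with Astragalus (13.8%), 2 with Samul (11.3%), 1 with Cinnamon (7.37%) and 0 with Cnidium (1.36%) and Rehmannia (2.93%). At the low dose 6 of 54 were called, all lower than vehicle: 4 with Sagunja (22.1% of genes) and 2 with Astragalus (3.67%). Without replicate 1 of Sagunja low, Sagunja had 2 (11.4% of genes), and Astragalus had 4 (14.1%). Cnidium (0.383% of genes), Rehmannia (0.993%), Cinnamon (1.06%) and Samul (2.62%) had 0 of 9 by edgeR. Unadjusted p-values under 0.05 numbered 0, 2, 1 and 2, and DESeq2 called 0, 0, 0 and 2. Without that library Samul had 2 (13.1% of genes), Cinnamon 1 (5.42%) and Cnidium (1.79%) and Rehmannia (3.65%) 0.

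Within sets, high against low dose gave 9 of 54 member calls. Sagunja had 4 (20.5% of genes), all higher at the high dose, with a median over the members of 0.21 against -0.02 for all genes. Without replicate 1 of Sagunja low 5 members were called and 6.43% of genes. MMP1, MMP3, MMP9 and MMP14 were then higher, and MMP2 was lower (-0.21 ± 0.06, adjusted p = 0.0221). Cinnamon had 3 (21.6% of genes), and Rehmannia (0.805%) and Samul (0.736%) had 1 each, both MMP1. Without that library these were 5 (35.8%), 3 (3.49%) and 2 (1.94%). Cnidium (0.228%, or 0.948% without it) and Astragalus (0.28%, or 1.16%) had 0 of 9 by edgeR in both fits, each with 1 member at an unadjusted p under 0.05 and 0 by DESeq2. Medium against low dose called MMP1 with Sagunja (9.09% of genes, 0.554% without replicate 1 of Sagunja low) and no other member by edgeR. Rehmannia (0.0114% of genes, or 0.0628% without it) and Cinnamon (0.12%, or 0.428%) had 2 and 1 members at an unadjusted p under 0.05. Cnidium, Astragalus and Samul, with 0.0% of genes called, had 0, 0 and 1. DESeq2 called 0 members in these 5. Over all genes those 3 extracts gave 291, 501 and 344 unadjusted p-values under 0.05, and DESeq2 called 0, 5 and 1 genes.

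**Figure D3:**
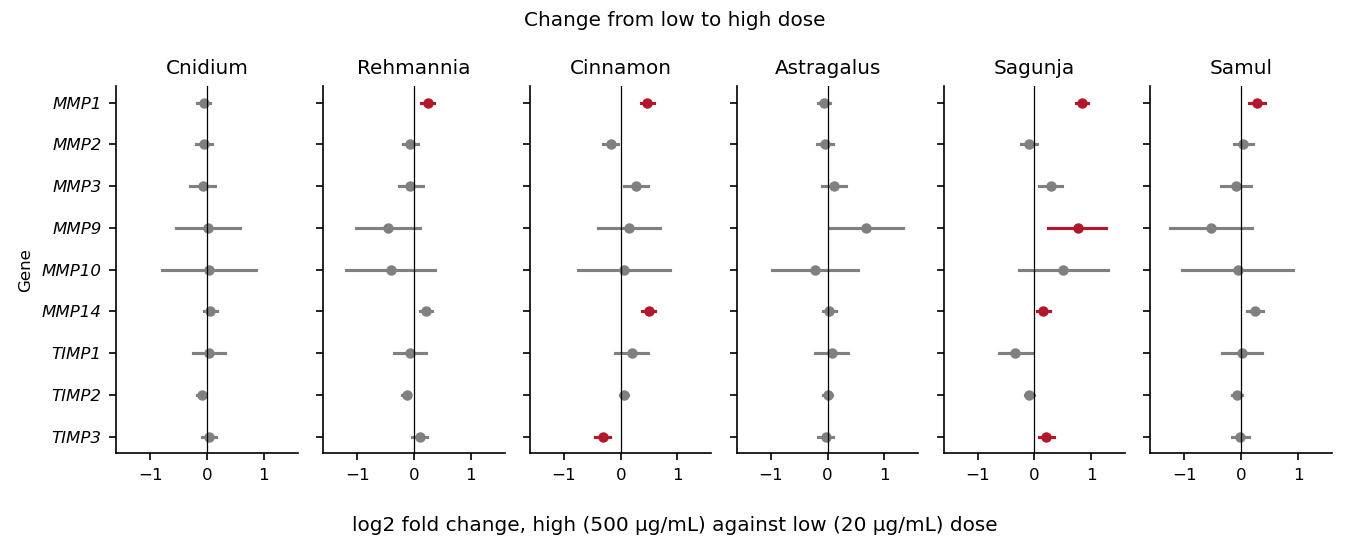
Points are log2 fold changes from the low (20 µg/mL) to the high (500 µg/mL) dose for 9 genes in 6 extracts, lines are 95% intervals, and red marks an adjusted p under 0.05. MMP1 is red with Rehmannia, Cinnamon, Sagunja and Samul, and MMP14 and TIMP3 point to opposite sides with Cinnamon.

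Cinnamon and Astragalus share a set, and at the high dose 3 of 9 members differed (27.6% of genes). MMP1 was higher with Cinnamon by 0.58 ± 0.06 (adjusted p = 7.79e-11) and MMP14 by 0.57 ± 0.06 (adjusted p = 1.87e-10). TIMP3 was lower by 0.26 ± 0.07 (adjusted p = 0.00235), which was not called with no filter on low counts (adjusted p = 0.057). Astragalus high libraries held 55.4, 55 and 58.6 CPM of MMP1 and 882, 778 and 757 CPM of MMP14, none reaching the Cinnamon high libraries. MMP2 did not differ beyond the spread, with 408, 344 and 339 CPM for Astragalus and an interval of the difference of -0.21 to 0.06. The steps from low to high dose themselves differed between both extracts for 3 of 9 members (14.4% of genes, or 27.7% without replicate 1 of Sagunja low), namely MMP1, MMP14 and TIMP3.

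**Figure D4:**
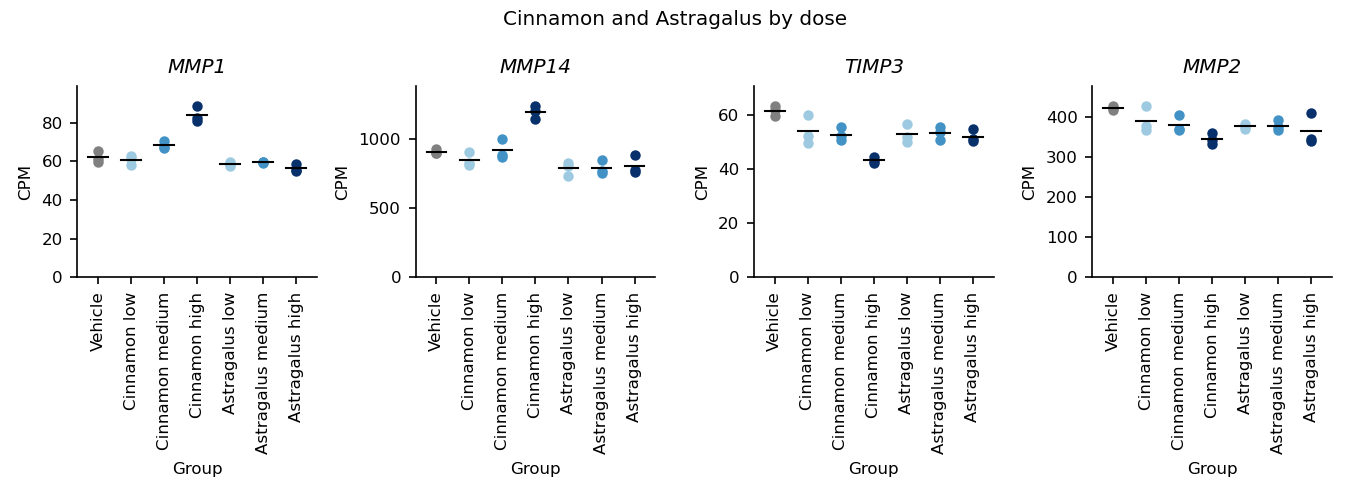
MMP1, MMP14, TIMP3 and MMP2 in CPM (vertical axes, from 0) in vehicle, Cinnamon and Astragalus libraries by dose; points are libraries and lines are group means. Cinnamon high stands above the other groups for MMP1 and MMP14 and below them for TIMP3, while the high and low doses of Astragalus overlap in all 4 panels.

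Sagunja and Samul share a set as well, and at the high dose 5 of 9 members differed (8.36% of genes), or 6 without replicate 1 of Sagunja low (17.5%). The formulas hold different herbs. Sagunja high was higher in MMP1 by 0.74 ± 0.06 (adjusted p = 1.08e-11), in MMP3 by 0.66 ± 0.12 (adjusted p = 0.000135) and in MMP9 by 1.65 ± 0.32 (3.13-fold, adjusted p = 0.000261). Samul high libraries held 71.7 and 65.6 CPM of MMP1, 9.18 and 8.07 CPM of MMP3 and 0.845 and 0.708 CPM of MMP9, each below all Sagunja high libraries. MMP2 was lower with Sagunja by 0.37 ± 0.08 (adjusted p = 0.00063), Samul high standing at 372 and 404 CPM. That call was lost without Samul high replicate 2 (adjusted p = 0.0544). TIMP3 was higher by 0.26 ± 0.07 (adjusted p = 0.0157), a call lost without Sagunja high replicate 1 or Samul high replicate 2 (adjusted p up to 0.23). With no filter on low counts it was lost too (adjusted p = 0.229). The step from low to high dose differed between the formulas for 1 of 9 members (2.89% of genes; 2 and 3.03% without replicate 1 of Sagunja low), MMP1, with an excess of 0.56 ± 0.09 for Sagunja (adjusted p = 8.6e-05).

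**Figure D5:**
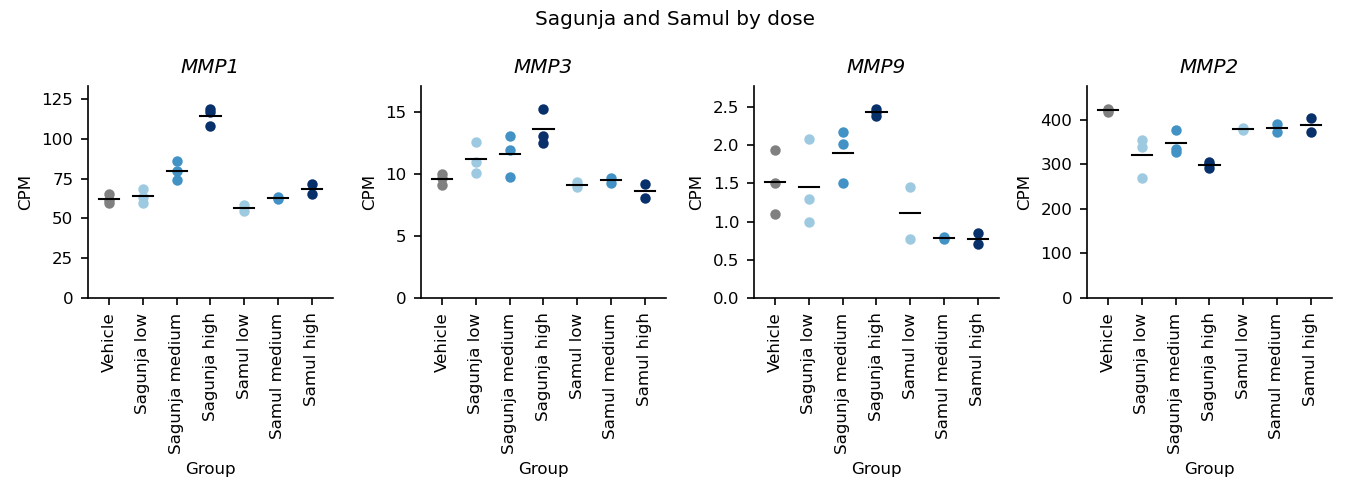
MMP1, MMP3, MMP9 and MMP2 in CPM (vertical axes, from 0) in vehicle, Sagunja and Samul libraries by dose; points are libraries (2 per dose for Samul) and lines are group means. MMP1 and MMP9 in Sagunja high lie above all other points, and MMP2 in Sagunja high lies below all but 1 Sagunja low library.

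Cnidium and Rehmannia differed at the high dose in 1 of 9 members (0.263% of genes, or 0.839% without replicate 1 of Sagunja low). MMP1 was lower with Cnidium, at 54.8, 57.8 and 55.3 CPM, than with Rehmannia, at 64.9, 70.3 and 67.1 CPM (-0.27 ± 0.06, adjusted p = 0.0153). The call held in 3 of 7 fits that left out 1 library and was lost without Cnidium high replicate 1 or 3 or Rehmannia high replicate 2 or 3 (adjusted p up to 0.187). It was also lost with no filter on low counts (adjusted p = 0.497). Their dose steps differed for 0 of 9 members by edgeR (0.04% of genes, or 0.188% without that library), with 1 at an unadjusted p under 0.05 and 0 by DESeq2. The dose steps of Cinnamon and Sagunja, which are in different sets, differed for 3 of 9 members (25.1% of genes), or 4 (15.9%) without replicate 1 of Sagunja low. MMP1 stepped up less with Cinnamon (-0.36 ± 0.08, adjusted p = 0.00104), and MMP14 more (0.34 ± 0.08, adjusted p = 0.00269). TIMP3 went down with Cinnamon and up with Sagunja (difference -0.53 ± 0.09, adjusted p = 5.63e-05).

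Angelica and Paeonia had 1 library a dose and were not tested. In none of 54 values was a member over 1.5-fold from the vehicle mean on the CPM + 1 scale, on which no fall of MMP10 could reach that fold. As plain ratios of CPM, MMP10 stood at 0.50 of vehicle in Angelica medium, and MMP9 at 0.65 in Angelica medium, 0.62 in Angelica low and 0.63 in Paeonia low, all at low counts. Of all genes, 0.668%, 0.679% and 0.805% were past that fold with Angelica high, medium and low, and 1.47%, 0.502% and 0.554% with Paeonia. TIMP2 and TIMP3 were below the vehicle range in 6 of 6 of these libraries and TIMP1, MMP2 and MMP3 in 5 of 6. How many of all genes lay below that range was not counted, and the vehicle libraries are in another set. The lowest MMP1 of the series, 50.8 CPM, was in Angelica medium.

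The promoters of MMP10, MMP14 and TIMP3 are shown to set a cytokine-type protease promoter beside those of the pair that moved apart with Cinnamon. They are from RefSeq (GRCh38.p14), end at the annotated gene start or shortly before it, and have matches to 3 motifs in capitals, searched on both strands. The AP-1 motif was searched as TGANTCA. The motif called TATA box was TATAAA. The GC box was searched as GGGCGG. Entries for 4 of the 9 genes were matched, the remaining one being TIMP1, and MMP1, MMP2, MMP3, MMP9 and TIMP2 had none.
MMP10, chr11:102780629-102780808, minus strand: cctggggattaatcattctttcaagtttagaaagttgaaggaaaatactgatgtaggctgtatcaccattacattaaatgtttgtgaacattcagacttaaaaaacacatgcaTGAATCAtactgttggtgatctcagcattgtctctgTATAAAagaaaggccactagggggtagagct
MMP14, chr14:22836405-22836556, plus strand: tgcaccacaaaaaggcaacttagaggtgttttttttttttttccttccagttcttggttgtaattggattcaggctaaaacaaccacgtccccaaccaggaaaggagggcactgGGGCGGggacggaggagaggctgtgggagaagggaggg
TIMP3, chr22:32801525-32801700, plus strand: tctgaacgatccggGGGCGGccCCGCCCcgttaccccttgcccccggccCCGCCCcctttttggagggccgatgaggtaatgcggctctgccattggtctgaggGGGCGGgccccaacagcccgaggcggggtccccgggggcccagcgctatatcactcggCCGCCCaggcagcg
MMP10 had an AP-1 match from -67 to -61 and a TATA box from -31 to -26, counted from the RefSeq start. MMP14 had 1 GC box, from -66 to -61, and TIMP3 had 5, the nearest from -18 to -13. TIMP1, not shown and not called in any comparison, had GC boxes from -135 to -130 and from -45 to -40. In the 250 bases upstream of 35116 RefSeq promoters, an AP-1 match was found in 6.57%, a TATA box in 10.7% and a GC box in 42.6%. A match is a run of letters and no evidence of binding.

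Genes with a part in the control of MMP transcription, namely cytokines, the growth factor gene HBEGF and its receptor gene EGFR, and AP-1, ETS and NF-kappaB factors, were followed as a list of 18. Not all of them need raise it, so a count of higher genes is no measure of induction. With Sagunja high against vehicle, where 17.1% of all genes were called, 6 were higher and 3 lower (median 0.04). These were 7 and 4 without replicate 1 of Sagunja low, against 30.8% of genes. IL6 rose from 5.87 to 50.7 CPM (8.73-fold), IL1B from 4.83 to 28.9 CPM (6.03-fold) and IL1A from 0.856 to 4.96 CPM (5.85-fold). FOSB, an AP-1 subunit, fell to 1.2 from 2.24 CPM. Against Sagunja low (20.5% of genes) 12 were higher and 1 lower (median 0.39), while without replicate 1 of that group 8 were higher (median 0.25, 6.43% of genes). With Cinnamon high against vehicle (22.8% of genes) 4 were higher and 3 lower (median -0.01), and 4 and 5 without replicate 1 of Sagunja low (35.7% of genes). IL1A rose 3.92-fold to 3.33 CPM and IL1B 2.32-fold to 11.1 CPM, JUN rose from 138 to 182 CPM, and HBEGF fell from 43.4 to 26.8 CPM. With Astragalus high (4.45% of genes) 5 were lower, IL1B among them (0.64 of vehicle), and 11 without replicate 1 of Sagunja low (12.6% of genes). Astragalus low had 6 lower than vehicle (3.67% of genes), or 9 without that library (14.1%). From Astragalus low to high 1 was higher and 0 lower (median 0.06, 0.28% of genes), and the counts were the same without that library (1.16%).

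Of 16 genes that activate or control the proteases, 2 were higher and 3 lower with Sagunja high against vehicle (median -0.02, 17.1% of genes), and 3 and 6 without replicate 1 of Sagunja low (30.8% of genes). SERPINB2, an inhibitor of plasminogen activators, rose from 42.9 to 238 CPM (5.61-fold). TFPI2, a serine protease inhibitor of the matrix, rose from 98.7 to 162 CPM. FURIN, the convertase that activates the MMP14 proenzyme, fell from 128 to 97.4 CPM. With Cinnamon high 3 were higher and 5 lower (median -0.04, 22.8% of genes). PLAU, the urokinase gene, fell from 137 to 60.4 CPM (-1.16 ± 0.05, adjusted p = 7.64e-22), and PLAT, tissue plasminogen activator, from 422 to 273 CPM.

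Of the list of 18 further family members, 12 passed the filter. With Sagunja high against vehicle 1 was called higher and 2 lower (17.1% of genes). The counts were the same without replicate 1 of Sagunja low (30.8%). Samul high had 1 higher and 1 lower (4.13%), or 1 and 2 without that library (13.3%). Cinnamon high had 0 called (22.8%), or 1 lower without it (35.7%), and Astragalus high 0 (4.45%), or 2 lower (12.6%). With Sagunja high MMP12, the macrophage elastase, rose from 0.757 to 1.97 CPM (2.61-fold), while the membrane-type genes MMP24 and MMP15 fell to 0.63 and 0.76 of vehicle. With Cinnamon high against the low dose (21.6% of genes) 1 was lower, MMP16, from 98 to 67.9 CPM. Without replicate 1 of Sagunja low 2 were lower (35.8%). Of 18 tested ADAM and ADAMTS genes, 4 were higher and 4 lower with Sagunja high, where 17.1% of genes were called, and 5 and 5 without replicate 1 of Sagunja low (30.8%). ADAMTS9 rose 2.82-fold to 28.3 CPM and ADAMTS6 2.02-fold to 49.2 CPM, and ADAMTS15 fell to 0.62 of vehicle. With Cinnamon high (22.8% of genes) 1 was higher and 3 lower, or 2 and 4 without replicate 1 of Sagunja low (35.7%), ADAM19 falling from 255 to 155 CPM.

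Of 18 matrix proteins that the enzymes cut, 10 were lower with Cinnamon high against vehicle (median -0.26, 22.8% of genes), and 9 were lower and 1 higher with Sagunja high (median -0.21, 17.1% of genes). Without replicate 1 of Sagunja low 13 were lower and 1 higher with Cinnamon high (35.7%), and 10 and 1 with Sagunja high (30.8%). Sagunja low already had 10 lower than vehicle (median -0.32, 22.1% of genes), or 8 without that library (11.4%). High against low dose gave 3 higher and 2 lower with Sagunja (median 0.12, 20.5%), or 1 and 3 without it (median -0.09, 6.43%). With Cinnamon 6 were lower at the high than at the low dose (median -0.22, 21.6%), or 12 (35.8%). COL5A1, a fibrillar collagen gene, fell from 2320 CPM in vehicle to 1344 with Cinnamon high and to 1358 with Sagunja high. COL1A1 fell from 4131 to 2774 and 2965 CPM. VCAN, the proteoglycan versican, fell from 676 to 382 CPM with Cinnamon. ELN, elastin, fell to 0.55 of vehicle with Cinnamon and rose 1.48-fold with Sagunja. The summed fibroblast and mural markers, which hold COL1A1 and COL1A2, were 6644 CPM in vehicle, 4719 with Cinnamon high and 4898 with Sagunja high, over a range of 4719 to 6644 in all groups. Epithelial markers summed to 245, 87.3 and 117 CPM, with EPCAM and CDH1 under 0.1 CPM in vehicle. Macrophage markers summed to 174, 216 and 173 CPM. The part of these shifts in the member results was not tested.

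Between members, the group means of MMP1 and MMP3 had a Pearson r of 0.71 over 25 groups, MMP1 and MMP9 of 0.66, MMP1 and MMP2 of -0.68 and MMP2 and MMP3 of -0.78. For MMP14 and TIMP3 it was -0.28. The groups differ in their number of libraries, and the part of single groups in these values was not tested. Among the genes most alike to the members over the 25 groups, of 11120 genes compared, were ACSL5 (0.961), FEZ1 (0.950) and BMPER (0.924) for MMP1 and CORO2B (0.942) and TMEM63B (0.927) for MMP14. They were VASN (0.918) for MMP2, SELENOT (0.902) for MMP3, COPE (0.948) for TIMP1, RNF144A (0.830) for TIMP2 and CCND1 (0.819) for TIMP3. For MMP9, among 11121 genes, it was TNIP1 (0.904).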

How the data were processed

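The authors deposited expected counts by gene from RSEM 1.3.3. Per the submitters' processing notes, reads had been handled with Trim Galore 0.6.5, FastQC 0.11.9 and STAR 2.7.3a on GRCh38. The sources used here name no annotation release. Of 279 columns, 60 belonged to these samples and 219 were not used. Expected counts were rounded (90.67% were whole). Symbols came from an Ensembl name table (56558 of 60675 genes). Per kilobase values used the union of GENCODE exons, and RSEM's own gene lengths were not used.

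Groups with 2 or more libraries (19 groups, 54 libraries) were fitted together with edgeR 4.0.16 (filterByExpr, TMM factors 0.935 to 1.028, estimateDisp, glmQLFit with its robust option, glmQLFTest; 35 residual degrees of freedom, biological coefficient of variation 0.0946). R 4.3.3, limma 3.58.1, DESeq2 1.42.0, Python 3.11.15, pandas 2.3.3, numpy 2.4.6 and matplotlib 3.10.9 were used, and the fit was tested on simulated data. Benjamini-Hochberg adjustment ran over all genes within each of 37 comparisons: 18 with vehicle, 12 of doses, 3 between extracts and 4 of dose steps, the last added after first results. Alternatives were other scalings, no filter (also without the robust option of glmQLFit), DESeq2, other designs, a replicate block and 54 fits leaving out 1 library.

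The members and lists were chosen with earlier results of these data known. Named were all members, per list and comparison at most 4 called genes with the largest changes and at least 1 CPM, of which a part is given, and the genes most alike to a member in log2(CPM + 1) group means among genes with at least 5 CPM in some group. Replicate numbers paired libraries (every correlation of deviations over 0.1) only for Cinnamon medium against low, at 0.197 to 0.457. The vehicle level of DMSO is that of the sample labels, and the series text gives another.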

Additional observations from a re-analysis of the deposited data

Results flagged for a closer look

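The change from the low to the high dose differed between extracts, by a test of the difference itself in the edgeR fit, for 3 members in 3 pairs of extracts. Between Cinnamon and Astragalus the difference was 0.53 log2 units for MMP1 (adjusted p = 4.65e-06), 0.46 for MMP14 (adjusted p = 6.2e-05) and -0.29 for TIMP3 (adjusted p = 0.0292). Every Cinnamon high library was above every Cinnamon low library for MMP1 and MMP14 and below them for TIMP3, while high and low Astragalus libraries overlapped. The TIMP3 difference held in 7 of 13 fits that left out 1 library. It was lost without replicate 2 or 3 of Cinnamon high, replicate 1 of Cinnamon low, replicate 1 of Astragalus high or replicate 2 or 3 of Astragalus low (adjusted p up to 0.156), on the 4 groups alone (-0.30, adjusted p = 0.0542) and with no filter on low counts (-0.28, adjusted p = 0.264).

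Between Sagunja and Samul the difference was 0.56 for MMP1 (adjusted p = 8.6e-05). Fitted on the 4 groups alone it was again 0.56 but not called (adjusted p = 0.82). Between Cinnamon and Sagunja it was -0.36 for MMP1, 0.34 for MMP14 and -0.53 for TIMP3, and on their 4 groups alone it was -0.37, 0.33 and -0.54, none of them called (adjusted p = 0.191, 0.218 and 0.121). Those fits hold Sagunja low replicate 1, the library that stood apart.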

How the results depend on the processing

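Of 333 member tests 44 were called, 19 of them under every alternative run. No called test changed sign. The Cinnamon high count was 4 in every alternative run. Sagunja high (4) became 3 without the filter, 5 with library size alone and 6 on its 2 groups alone (4 to 5 with 1 library left out). The 3 pairs of extracts (9 calls) gave 6 without the filter, 10 with DESeq2 and 10 on 2 groups alone (7 to 10). Other counts of called members moved as follows. Cnidium high (0) became 1 with DESeq2 and 2 on its 2 groups alone, and 0 to 1 with 1 library left out. Rehmannia high (0) became 1 with DESeq2 size factors, 1 with library size alone, 1 with DESeq2 and 3 on its 2 groups alone (0 to 1 with 1 library left out). Astragalus high (1) became 0 with library size alone, 0 without the filter, 2 with the replicate block and 3 with DESeq2 (0 to 3). Samul high (1) became 0 without the filter, 2 with DESeq2 and 3 on its 2 groups alone (0 to 2). At the medium dose (2) there were 8 with DESeq2 and 13 on 2 groups alone (1 to 10), and at the low dose (6) 3 without the filter and 11 on 2 groups alone (3 to 10). High against low (9) gave 15 with DESeq2 (6 to 15), and medium against low (1) gave 2 without the filter, 2 with DESeq2 and 0 on 2 groups alone (1 to 4). Dose steps (7) gave 3 on their groups alone (6 to 9). Angelica and Paeonia (0) gave 3 with a pseudocount of 0.1. The run without the filter also left out the robust option of glmQLFit, and the cause of these moves was not tested.

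Without Sagunja low replicate 1, 29 of 333 tests gained and 3 lost a call. The replicate block gained 7 and lost 1, and it changed no call of Cinnamon medium against low, where the numbers pair libraries. MMP9 and MMP10 are limited by their counts.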
